A study of Saccharomyces cerevisiae with 2 samples.

Results

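The 2 nuclear genes of budding yeast (Saccharomyces cerevisiae) for the isoleucine tRNA with anticodon UAU, tI(UAU)D and tI(UAU)L, were taken from tables of tRNA genes measured by small RNA-seq. They were chosen by name, as the rows whose gene name begins with tI(UAU) and that do not lie on the mitochondrial genome, and they are 2 of the 239 nuclear tRNA genes and of 252 tRNA genes in all in those tables. The libraries came from a cdk1-as1 strain and a WT strain carrying CDK1, with 1 library per strain, so there is no replicate spread and no difference between strains was tested. In cdk1-as1 the gatekeeper phenylalanine of Cdk1 at residue 88 is a glycine, and the labels describe the allele as hypomorphic also when no ATP analogue is added. The other strain is labelled wild type. Both cultures were held in G1 phase with 15 mg/L alpha factor for 3 h, released into YPD or YPD with 10 mg/L nocodazole (the labels do not say which for either library) and collected in S phase as judged by microscopy. The study reports that the phase of these cells was also checked by flow cytometry. The tables hold tRNA genes only, so the CDK1 transcript itself was not checked in either library.

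A tRNA reads a codon of an mRNA with its anticodon and carries the matching amino acid to the ribosome. The isoleucine tRNA with anticodon UAU reads AUA, while the isoleucine tRNA with anticodon AAU, whose wobble adenosine is converted to inosine, reads AUU and AUC. RNA polymerase III (RNAPIII) makes the tRNAs of yeast, and its promoter elements, the A box and the B box, lie inside the gene and are bound by TFIIIC. TFIIIC places TFIIIB upstream of the gene, and transcription ends at a run of T residues. Some tRNA precursors carry an intron next to the anticodon, which the Sen endonuclease cuts out before the ligase Trl1 joins the exons. In this tRNA the intron is also needed for the enzyme Pus1 to convert both uridines of the anticodon to pseudouridine.

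Both genes are shown whole because they carry the longest tRNA introns of the annotation and differ from each other by a single base. Sequences are from RefSeq (build R64, the same as sacCer3) and run 5′ to 3′ along the tRNA, and capitals mark the anticodon and the base that differs.
tI(UAU)D, chrIV:884361-884493, plus strand: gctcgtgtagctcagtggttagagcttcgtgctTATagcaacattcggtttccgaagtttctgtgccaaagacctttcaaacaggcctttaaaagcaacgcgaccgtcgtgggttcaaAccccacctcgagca
tI(UAU)L, chrXII:605300-605432, minus strand: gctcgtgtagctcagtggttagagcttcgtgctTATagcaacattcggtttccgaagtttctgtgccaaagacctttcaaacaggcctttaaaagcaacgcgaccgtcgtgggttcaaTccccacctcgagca

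tI(UAU)D (locus tag YNCD0017W) and tI(UAU)L (YNCL0033C) are each 133 nt long, of which the exons make up 73 nt and the intron 60 nt. The intron lies at 884398 to 884457 of chromosome IV in tI(UAU)D and at 605336 to 605395 of chromosome XII in tI(UAU)L, which is positions 38 to 97 of either gene counted from 1 at its 5′ end. Among the 60 intronic tRNA genes of the annotation, the next longest introns were those of the 6 tryptophan genes, at 34 nt, and the median was 23 nt. The intron made up 45.1% of the isoleucine genes and had the same sequence in both, with a GC content of 43.3%, against 56.2% in the exons of tI(UAU)D.

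The genes were 99.2% identical, and the only substitution, tI(UAU)D first, was A119T in the second exon (base 59 once the intron is removed). It fell inside the B box. Both boxes were searched as 11-base motifs with 8 fixed bases, on both strands, and are shown because the substitution lies in 1 of them and the intron between them. Capitals mark the fixed bases of the motif, and lower case marks positions where any base was allowed.
A box in both genes: TaGCtcAGTGG
B box of tI(UAU)D: GGTTCaAacCC
B box of tI(UAU)L: GGTTCaAtcCC

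The A box motif was found at positions 8 to 18 of both genes and in 46 of the 275 annotated tRNA genes (16.7%), and the B box motif at positions 112 to 122 and in 183 of the 275 genes (66.5%). The substitution is the 8th base of the B box motif, where any base is allowed. The motifs do not overlap.

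The intron sits between the promoter elements. From the start of the A box to the start of the B box there were 104 bases, against 44 with the intron left out. Of the 26 genes that matched both motifs, these 2 had the longest distance, the next had 72 bases and the median was 53.

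**Figure D1:**
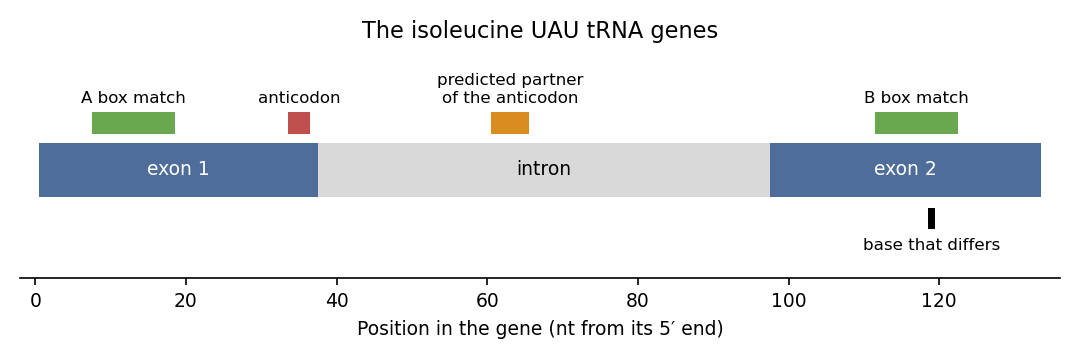
Map of the isoleucine UAU tRNA genes by position in the gene (nt from the 5′ end), drawn to scale and valid for both genes. The intron (positions 38 to 97) lies between the A box match (8 to 18) and the B box match (112 to 122), and the base that differs (119) lies in the B box match.

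The predicted fold (RNAfold, −36.5 kcal/mol for the transcript of either gene, identical in both) placed the anticodon and the 2 bases after it, of which the second is the first base of the intron, in 5 base pairs with positions 61 to 65 of the gene, which lie in the intron. This is a prediction from sequence alone, at default settings and without modified bases. The intron is shown with the paired stretch in capitals, because it covers the anticodon in the predicted precursor.
Intron of both genes: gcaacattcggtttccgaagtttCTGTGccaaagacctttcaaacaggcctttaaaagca

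The flanks of the genes were alike close to the gene and unlike further out. They are shown for the TATAAA motif upstream and the T run downstream, both in capitals.
tI(UAU)D upstream, chrIV:884311-884360: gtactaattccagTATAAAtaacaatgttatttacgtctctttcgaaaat
tI(UAU)L upstream, chrXII:605433-605482: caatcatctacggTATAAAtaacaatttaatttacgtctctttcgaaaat
tI(UAU)D downstream, chrIV:884494-884513: ctttctcTTTTTTTTTcaca
tI(UAU)L downstream, chrXII:605280-605299: ctttctcTTTTTTTTTTaaa

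In the 50 bases before the genes, compared without gaps, 10 bases differed (80.0% identity), and the next 50 bases upstream were 22.0% identical. In the 20 bases after the genes 2 bases differed, and the next 50 were 24.0% identical. TATAAA began 37 bases before the start of both genes, on the strand of the gene. Of the 275 annotated genes, 18 (6.55%) had it in the same window on that strand and 32 (11.6%) on either strand. The T run had 9 bases in tI(UAU)D and 10 in tI(UAU)L and began at base 8 after either gene. A run of 6 T residues (TTTTTT, strand of the gene) was found within 20 bases after 214 of 275 genes (77.8%).

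A Ty1 retrotransposon (YDRCTy1-2), of a family that inserts upstream of genes transcribed by RNAPIII, ends 140 bases upstream of tI(UAU)D, and GCD6, which encodes a subunit of the translation initiation factor eIF2B, begins 233 bases downstream of it. BNA5, which encodes kynureninase of NAD synthesis, lies 325 bases upstream of tI(UAU)L. No annotated feature overlapped either gene.

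For each gene the tables give an estimated count, the number of sequenced fragments assigned to the gene, which need not be whole, and FPKM, fragments scaled to gene length and to the size of the library, normalized with spike-in RNA. tI(UAU)D had an estimated count of 19.7 in cdk1-as1 and 19.5 in WT (95% exact Poisson interval of the rounded count, 12.2 to 30.9 in each). tI(UAU)L had an estimated count of 16.9 in cdk1-as1 (9.90 to 27.2) and 20.0 in WT (12.2 to 30.9). The intervals overlapped for both genes. All intervals here and below cover counting error only, not the spread between cultures.

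Together the genes had 36.6 counts in cdk1-as1 (26.1 to 51.0) and 39.5 in WT (28.6 to 54.5), so that the cdk1-as1 library held 92.5% of the WT count. The log2 count ratio (cdk1-as1 over WT) was 0.01 for tI(UAU)D (95% exact binomial interval −0.97 to 0.97), −0.25 for tI(UAU)L (−1.26 to 0.77) and −0.11 for the sum (−0.80 to 0.57). These counts are not normalized, so a difference in size between the libraries is left in them. A difference in such unscaled counts was not detectable at this depth. For the sum the interval spans differences of up to 0.80 downwards and 0.57 upwards on the log2 scale.

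In FPKM both genes were lower in cdk1-as1. tI(UAU)D had 27243 FPKM in cdk1-as1 and 36893 FPKM in WT, a log2 FPKM ratio of −0.44, or 73.8% of the WT level. tI(UAU)L had 23590 FPKM in cdk1-as1 and 37946 FPKM in WT, a log2 FPKM ratio of −0.69, or 62.2%. For the sum the log2 FPKM ratio was −0.56. In such bulk samples, fewer cells and less RNA per cell cannot be told apart. Per length of the exons alone the levels would be 49634 FPKM in cdk1-as1 and 67217 FPKM in WT for tI(UAU)D, and 42978 FPKM in cdk1-as1 and 69134 FPKM in WT for tI(UAU)L, with the same ratios.

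**Figure D2:**
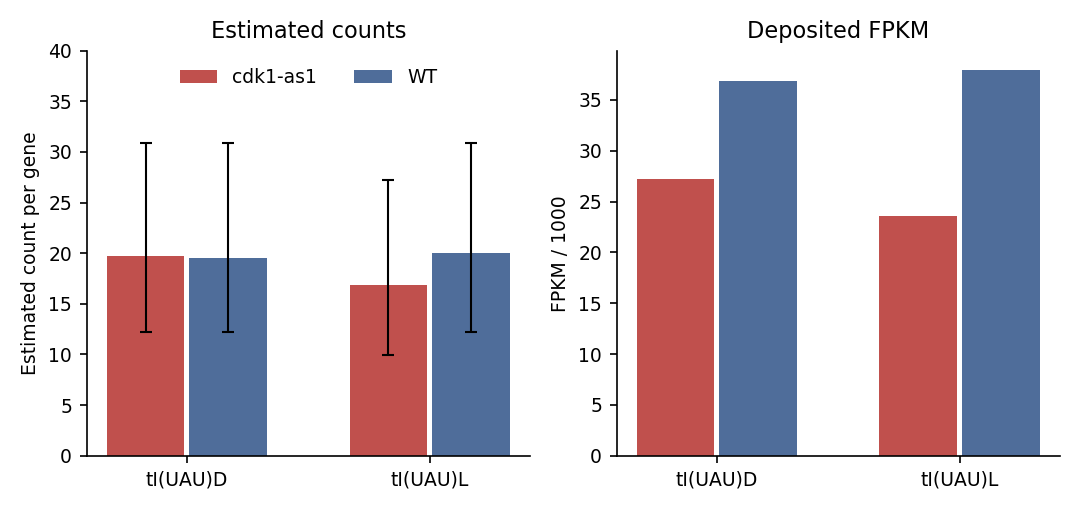
Estimated counts (left, with 95% exact Poisson intervals as error bars) and FPKM divided by 1000 (right) of tI(UAU)D and tI(UAU)L in the cdk1-as1 library (red) and the WT library (blue), 1 library each. The counts lie between 16.9 and 20.0 and their intervals overlap, whereas FPKM is lower in cdk1-as1 for both genes.

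The counts and the FPKM values of these genes thus differ in how far apart they place the libraries. A single count was worth 1385 FPKM for tI(UAU)D and 1398 FPKM for tI(UAU)L in cdk1-as1, against 1890 and 1897 FPKM in WT. On the log2 scale this made up −0.45 and −0.44 of the FPKM ratios. The same shift over the 48 nuclear genes with at least 10 counts in both libraries (23 sets of copies with the same values) had a median of −0.42 and a range of −0.62 to −0.14, so that the isoleucine genes lay close to its middle. The sources used here do not say how the spike-in entered FPKM, and its part in the lower FPKM was not tested.

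All listed tRNA genes together had 1570 counts in cdk1-as1 and 2952 in WT, or 53.2% of the WT count, and 41.5% of the WT FPKM. These totals are of the tRNA tables and not of the libraries. The isoleucine UAU genes held 2.33% of all listed counts in cdk1-as1 (Clopper-Pearson interval 1.66 to 3.23%) and 1.34% in WT (0.970 to 1.84%). The share was 1.74-fold higher in cdk1-as1, a log2 ratio of 0.80 (0.11 to 1.48). Within the tRNA pool, the UAU genes therefore took a larger share of the counts in cdk1-as1, and the sign of their difference between strains turned with the scale. When both libraries were set to the same total FPKM, which moves every gene by 1.27, the log2 ratio was 0.83 for tI(UAU)D and 0.58 for tI(UAU)L. When they were set to the same total count, which moves every gene by 0.91, it was 0.92 (−0.06 to 1.88) for tI(UAU)D and 0.67 (−0.35 to 1.68) for tI(UAU)L.

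**Figure D3:**
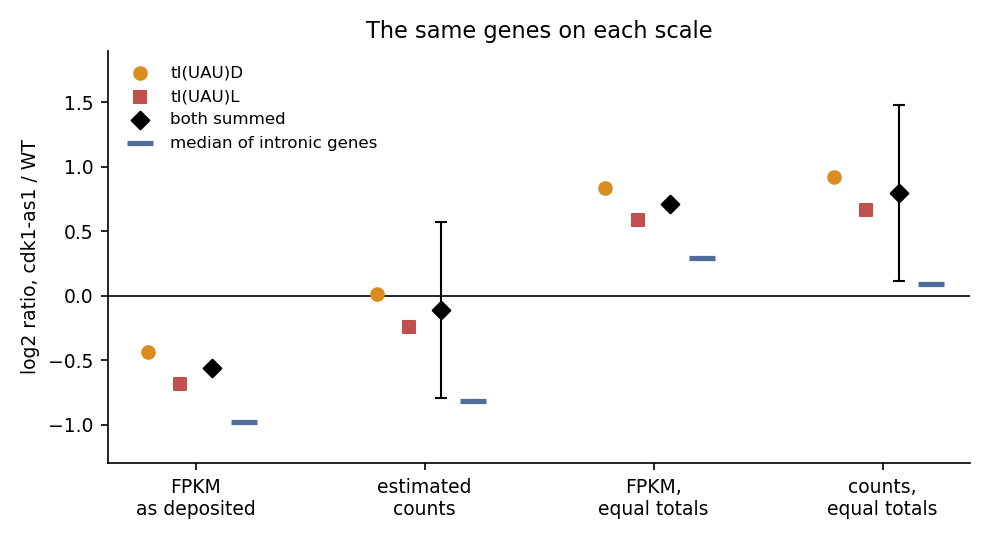
The log2 ratio (cdk1-as1 over WT) of tI(UAU)D, tI(UAU)L, their sum and the median of the 54 intronic nuclear tRNA genes on 4 scales. Error bars are 95% exact binomial intervals of the count ratio of the sum. The ratios of the isoleucine genes are −0.44 and −0.69 in FPKM as deposited, 0.01 and −0.25 in counts and above 0 with equal totals, and lie above the intronic median on each scale.

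Both isoleucine UAU genes had a log2 FPKM ratio below 0 (2 of 2), against 91.1% of the 191 nuclear genes measured in both libraries and 87% of the 54 intronic ones. Neither had a ratio below −1, against 67% of the nuclear and 38.9% of the intronic genes. The medians were −1.48 for the nuclear, −1.65 for the 137 intronless and −0.98 for the intronic genes. In counts, tI(UAU)L alone of the pair was below 0, against 82.7% of the nuclear and 77.8% of the intronic genes, and the median log2 count ratio was −1.69 for the nuclear and −0.82 for the intronic genes. Of the 73 nuclear genes with at least 10 counts in 1 of the libraries, as the isoleucine genes have, 93.2% were below 0 and 57.5% below −1 in FPKM, and 87.7% were below 0 in counts. With equal total FPKM, 0 of the pair were below 0, against 63.4% of the nuclear and 31.5% of the intronic genes, and with equal total counts, 0 of the pair, against 59.7% and 29.6%. Among the 73 genes with at least 10 counts these shares were 53.4% with equal total FPKM and 46.6% with equal total counts. Their median log2 ratio was −1.44 in FPKM as deposited and −0.84 in unscaled counts, the latter close to the intronic median of −0.82.

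The summed counts of the pair were set against those of the other genes by a ratio of ratios. The other 52 intronic genes had 731 counts in cdk1-as1 and 1318 in WT, a log2 ratio of −0.85 (−0.98 to −0.72). The log2 count ratio of the pair lay 0.74 above theirs (exact conditional interval 0.04 to 1.43). It lay 0.94 above that of the 185 intronless nuclear genes listed in either library (0.24 to 1.63). In counts, the ratio of the isoleucine pair stood above the pooled ratio of either list, with the lower bound close to 0 for the intronic list. These intervals cover the counting error of the sums and not the spread between the genes of a list. Single intronic sets stood higher than the pair, as tI(UAU)D had the 8th and tI(UAU)L the 11th highest log2 count ratio of 32 intronic sets. With 1 library per strain, the spread between cultures is not part of these intervals.

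Among the 32 intronic sets, a set being gene copies with the same values, tI(UAU)D had the 10th and tI(UAU)L the 13th highest log2 FPKM ratio. Just above tI(UAU)D stood the serine gene tS(GCU)O at −0.37 and just below it the leucine gene tL(CAA)C with its 4 further copies at −0.59. tS(GCU)O had 3.73 counts in cdk1-as1 and 5.55 in WT. Each copy of tL(CAA)C had 0.708 counts in cdk1-as1 and 2.28 in WT, so both ratios rest on few counts. Just above tI(UAU)L stood the proline gene tP(UGG)M at −0.67 and just below it the lysine gene tK(UUU)P at −0.70. By level, tI(UAU)D was 10th in cdk1-as1 and 15th in WT by count, and 14th in cdk1-as1 and 20th in WT by FPKM. tI(UAU)L was 14th in both by count, and 15th in cdk1-as1 and 19th in WT by FPKM.

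Summed by amino acid, the isoleucine genes had the highest log2 count ratio of the 8 groups of intronic genes, at −0.11. Lysine followed at −0.34 (−1.87 to 1.17), tyrosine and phenylalanine at −0.59 each, tryptophan at −0.77, serine at −1.01, proline at −1.08 and leucine at −1.38. The interval of isoleucine (−0.80 to 0.57) overlapped those of lysine, tyrosine (−0.88 to −0.30), phenylalanine (−0.83 to −0.36), tryptophan (−1.24 to −0.32), serine (−1.60 to −0.45) and proline (−1.52 to −0.66), and lay above that of leucine (−1.69 to −1.09). This holds for the leucine sum, as single leucine sets ranged from −3.10 to −0.11 and some lay within the isoleucine interval. The order was not the same in FPKM, where the median log2 ratio of the genes was 1.56 for lysine and −0.56 for isoleucine, with lower medians in the other 6 groups. The lysine median is the value shared by tK(UUU)D, named after its values were seen, and its identical copies, 5 of the 7 lysine genes. Each of these had 0.199 counts in cdk1-as1 and 0.0530 in WT, so this median rests on almost no counts.

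Over the 32 intronic sets, Spearman's rho between intron length and log2 FPKM ratio was −0.32, and over the 30 sets without isoleucine it was −0.42. Among sets with at least 10 counts in 1 of the libraries it was −0.23 with the isoleucine genes (21 sets) and −0.44 without them (19 sets). Each of these values was negative, so sets with longer introns tended to have lower ratios. The isoleucine genes, which have the longest introns, did not have the lowest ratios. These correlations are descriptions across genes that share the same libraries.

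**Figure D4:**
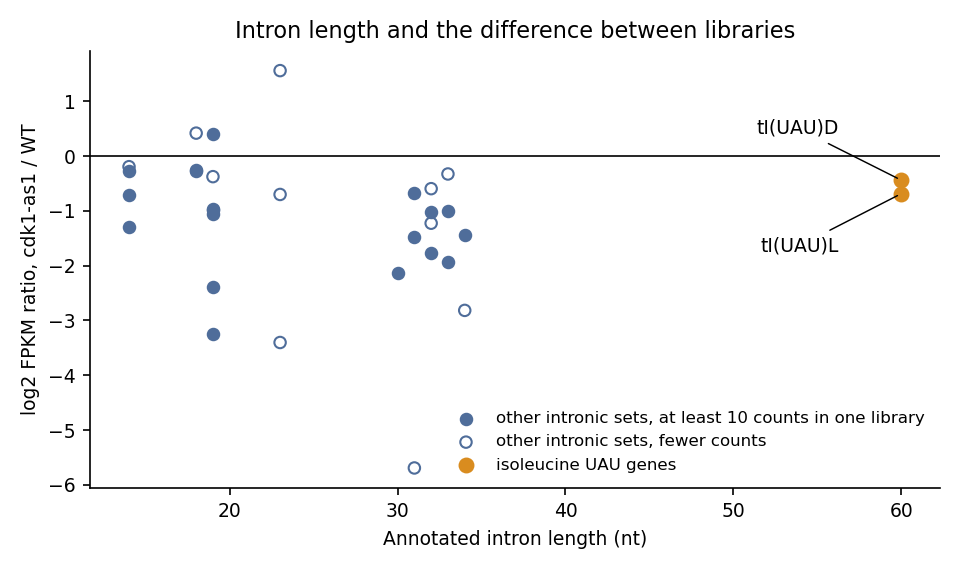
Annotated intron length (nt) against the log2 FPKM ratio (cdk1-as1 over WT) of the 32 intronic sets. Filled circles are sets whose genes have at least 10 counts in 1 or both libraries, open circles are sets with fewer, and orange marks tI(UAU)D and tI(UAU)L. The isoleucine genes, at 60 nt, lie at −0.44 and −0.69, while the sets with introns of 30 to 34 nt reach from −0.33 down to −5.69. Both of these ends are open circles, and the filled circles at 30 to 34 nt reach from −0.67 down to −2.14.

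Within each library the genes of the pair were close. tI(UAU)L had 46.2% of the counts of the pair in cdk1-as1 (29.5 to 63.1%) and 50.6% in WT (33.8 to 66.2%), and in FPKM it stood at 86.6% of tI(UAU)D in cdk1-as1 and 103% in WT. The log2 ratio of tI(UAU)L lay 0.25 below that of tI(UAU)D in FPKM and 0.26 below it in counts (interval of the difference −1.66 to 1.19). A difference in how the genes responded was not detectable at this depth, with an interval that spans more than 1 log2 unit either way. The genes differ only at position 119, so a fragment that does not cover this base has the same sequence in both. How such fragments were shared between the genes was not tested, and the intervals do not cover it. The part of this sharing in the closeness of the pair within a library was not tested either.

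The genes lie on opposite strands of their chromosomes, and in these tables the strand set which copies share values. Of 364 pairs of genes with the same sequence on the same strand, 363 had the same count and FPKM (within 1e-05 of the value), while of 292 such pairs on opposite strands 0 did. A difference between tI(UAU)D and tI(UAU)L therefore cannot be told apart from a difference between strands, and the sources used here do not say how strand entered the counting. The sum of the pair does not depend on how fragments were split between these genes.

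There are 18 gene sequences with identical copies on both strands, and they show how far the tables separate genes that have no base to tell them apart. The log2 count ratio (cdk1-as1 over WT), summed over the copies of each strand, differed between the strands by a median of 1.15 (0.07 to 5.15), and in 16 of the 18 by more than the 0.26 between the isoleucine genes. Among the 6 sequences with at least 5 counts in all 4 sums the median was 1.23 (0.55 to 2.10). Within a library, the summed counts of the strands lay 2.78 apart on the log2 scale in cdk1-as1 and 3.46 in WT (medians). Among the 6 sequences with at least 5 counts in all 4 sums these medians were 1.86 and 2.68. Between tI(UAU)L and tI(UAU)D the gaps were 0.22 and 0.04. Most of these sequences have unequal numbers of copies on the strands, so their gaps within a library are not per copy. The isoleucine genes were thus closer to each other, in both libraries and in their ratios, than the strand sums of most sequences with identical copies on opposite strands. The median difference between identical copies, 1.15, is also larger than the 0.74 by which the pair stood above the other intronic genes. These are unlike measures, as the 1.15 compares strands within a sequence and the 0.74 compares counts summed over both strands. By strand, the other intronic genes had log2 count ratios of −0.94 on the plus strand (30 genes) and −0.81 on the minus strand (22 genes), both below those of tI(UAU)D (plus, 0.01) and tI(UAU)L (minus, −0.25). The intronless genes measured in both libraries had −0.56 on the plus strand (57 genes) and −1.86 on the minus strand (80 genes).

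**Figure D5:**
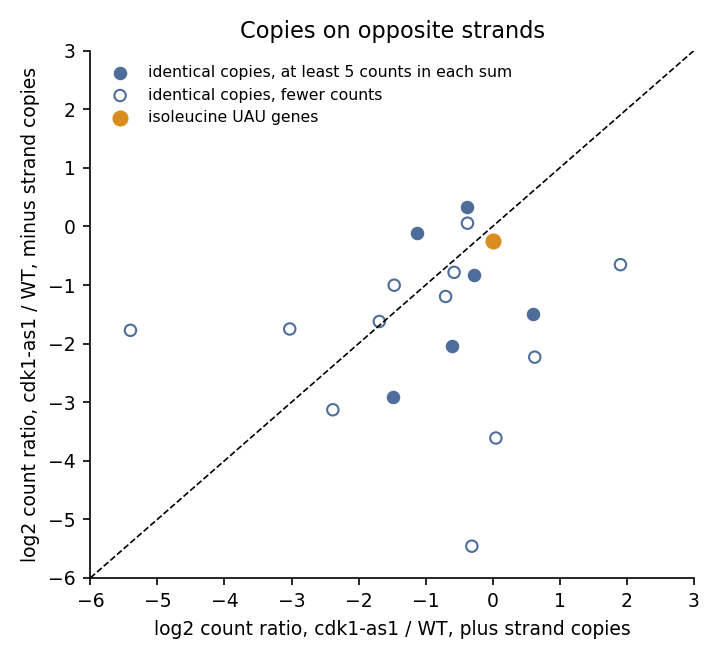
The log2 count ratio (cdk1-as1 over WT) of the plus strand copies against that of the minus strand copies, for 18 gene sequences with identical copies on both strands (blue, filled with at least 5 counts in all 4 sums, open with fewer) and for tI(UAU)D and tI(UAU)L (orange). Points on the dashed line have the same ratio on both strands. The isoleucine genes lie 0.26 below it, and the filled points lie 0.55 to 2.10 above or below it, both measured along the minus strand axis.

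The nearest genes by level were found from the log2 FPKM in both libraries, over these 2 values. The members lay 0.11 from their own mean. Nearest were the phenylalanine gene tF(GAA)M (distance 0.25), with 30170 FPKM in cdk1-as1 and 36377 FPKM in WT, and the leucine gene tL(CAA)A (0.33), with 21385 FPKM in cdk1-as1 and 43461 FPKM in WT. The lysine gene tK(UUU)P followed at 0.41, the glycine gene tG(UCC)G at 0.42 and the phenylalanine gene tF(GAA)B at 0.51. Of these 5, all but tG(UCC)G have an intron. Their log2 count ratios lay on both sides of those of the pair, with 0.36 for tF(GAA)B, 0.17 for tF(GAA)M, −0.55 for tL(CAA)A, −0.65 for tK(UUU)P and −1.47 for tG(UCC)G.

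The remaining nuclear isoleucine genes are the 13 intronless tI(AAU) genes, 74 nt long and of the same sequence. They fall into a set of 6 copies on plus strands and a set of 7 on minus strands. In counts they were nearly empty, and the isoleucine counts were almost all from the UAU genes. The 13 genes together had 0.438 counts in cdk1-as1 and 1.76 in WT, fewer in each library than the 3 counts that a count of 0 would allow, while the UAU pair had 36.6 in cdk1-as1 and 39.5 in WT. The UAU genes thus held 98.8% of the isoleucine counts in cdk1-as1 and 95.7% in WT. Per length, in FPKM, they held 86.8% in cdk1-as1 and 31.2% in WT. At such counts FPKM did not follow the count, as each of the 6 plus strand copies was listed with 2.17 FPKM at 0.0122 counts in cdk1-as1 and with 23804 FPKM at 0.00787 counts in WT. No ratio is therefore given for tI(AAU).

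The counts ran against the number of genes and against codon use. UAU has 2 genes to 13 for AAU, and in 6002 annotated coding sequences AUA made up 28.0% of isoleucine codons, against 46.0% for AUU and 26.0% for AUC. The counts are not a measure of mature tRNA: precursors and mature tRNAs are not separated in the tables, and according to the study's methods base modifications of mature tRNAs can hinder sequencing. The part of modification in the near absence of tI(AAU) counts was not tested.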

How the data were processed

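The data are 1 small RNA library each of cdk1-as1 and WT in S phase. The study's methods name a miRNA isolation kit, paired-end reads, the Ensembl R64 annotation and ERCC spike-in normalization, while the labels name a QIAGEN kit for total RNA. The aligner, counter and strand setting were not given in the sources used here. The authors deposited an estimated count, not normalized, and an FPKM value per tRNA gene and library. A side-by-side table deposited by the authors holds the same values as RPKM for 251 genes, with 0.1 for absent genes. Its fold change, FDR and log10 columns were not used.

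Genes were matched by position to RefSeq R64. The members, lists, named genes and comparisons were chosen with earlier results of these data known, and the comparison of strands after the values were seen. Named genes were the members, their neighbours in order of log2 ratio and the 5 sets nearest in log2 FPKM. Ratios had no pseudocount and needed a value above 0.1 FPKM in both libraries. With 1 library per strain no test was made. Intervals are exact Poisson, Clopper-Pearson or conditional odds ratio intervals at 95%, of rounded counts, and were checked on simulated data. Alternatives were pseudocounts of 1, 100 and 1000 FPKM, equal totals, counts, at least 10 counts, copies counted as 1, exon length and the side-by-side table. Tools were Python 3.11.15, pandas 2.3.3, scipy 1.17.1, Biopython 1.88, RNAfold 2.7.2 and matplotlib 3.10.9.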

Additional observations from a re-analysis of the deposited data

How the results depend on the processing

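With 17 to 20 counts per gene and library, the counting interval of either gene reached about 1 log2 unit to each side, the choice of scale moved every gene by 1.27 or 0.91, and no alternative supplies the missing replicates. Pseudocounts of 1, 100 or 1000 FPKM and the side-by-side table kept the sign of every ratio of the pair. With equal total FPKM the log2 ratio was 0.83 for tI(UAU)D, 0.58 for tI(UAU)L, 0.71 for their sum and 0.29 for the intronic median, and as shares of all listed counts it was 0.92, 0.67, 0.80 and 0.091, all of the opposite sign to FPKM. As unscaled counts only tI(UAU)D turned, to 0.011. The nuclear genes lower in cdk1-as1 numbered 174, against 114 by share of counts, 68 with at least 10 counts (fewer genes) and 61 with copies counted as 1 (fewer units). The intronic genes lower numbered 47, against 17 with equal total FPKM, 16 by share of counts and 29 with copies counted as 1. Exon length raised the FPKM levels of both members alike. No paired analysis was possible because each strain has 1 library, and for the same reason none could be left out.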

Other observations

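Split by strand, the other isoleucine tRNA genes were as sparse as in sum. The 6 plus strand copies of tI(AAU) had 0.0730 counts in all in cdk1-as1 and 0.0472 in WT, and the 7 minus strand copies had 0.365 in cdk1-as1 and 1.72 in WT, all below 3 counts. The largest gap in log2 count ratio between identical copies on opposite strands, 5.15, was that of the glutamate gene tE(UUC)B, named after its values were seen, with ratios of −0.31 on the plus strand and −5.46 on the minus strand.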
